A study of Mus musculus with 4 samples.

Results

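Microglia that carried transcripts of both Cspg4 and Lpl were taken from single-cell libraries of mouse brain. A cell belonged to this group if it held 200 to 6000 detected genes and at most 10% mitochondrial UMIs (unique molecular identifiers, each standing for 1 captured transcript), with 2 or more UMIs of Cspg4, 2 or more of Lpl, and no UMI of Mrc1 or of the class II genes H2-Eb1, H2-Ab1 and H2-Aa. These last 4 genes mark border macrophages and antigen-presenting cells. Of 40869 cells within the limits, 2306 (5.64%) met the rule and are called Cspg4+ Lpl+ cells here. The cells were thus chosen by the measured UMIs of 6 genes, and the levels of those genes are given as a description with no test.

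The libraries came from 2 PRMT1FL mice and 2 PRMT1Cx3cr1-KO mice, whose brain cells were sorted for CD45 and CD11b and run on the 10x Genomics platform, which reads the 3′ end of transcripts. PRMT1FL mice carry a floxed Prmt1 allele and are labelled wild type. PRMT1Cx3cr1-KO mice carry the floxed allele with Cx3cr1-CreERT, a tamoxifen-inducible recombinase expressed from the Cx3cr1 locus in microglia and other mononuclear phagocytes, so deletion is not limited to 1 microglial state. All 4 mice were on a C57BL/6 background, received tamoxifen, and ate chow with 0.2% cuprizone for 5 wk, which makes oligodendrocytes die and myelin break down; every group therefore shares the diet, and no mouse on normal chow was analysed here. The labels give an age of 5 to 6 wk at the diet, whereas the study's methods give that age for tamoxifen and begin the diet 2 wk later. Whether the PRMT1FL mice carried the driver is not given in the sources used here. The libraries held 91306165 and 76943248 UMIs in the PRMT1FL mice and 85874289 and 99559644 in the PRMT1Cx3cr1-KO mice.

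Cspg4 (ENSMUSG00000032911, mm10 chr9:56865033-56899870, plus strand) encodes the membrane chondroitin sulfate proteoglycan NG2, best known from oligodendrocyte precursors and from pericytes of the vessel wall. Lpl (ENSMUSG00000015568, mm10 chr8:68880491-68907448, plus strand) encodes lipoprotein lipase, which releases fatty acids from lipoprotein triglycerides and is a familiar transcript of microglia in lesions where myelin is being cleared. Phagocytic microglia engulf debris, degrade it in lysosomes with cathepsins and glycosidases, and pass the lipids on to storage or efflux.

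The cells were microglia by their markers, and those of the other cells that make NG2 were close to absent. The summed level of 7 microglial genes (P2ry12, Tmem119, Cx3cr1, Csf1r, Aif1, C1qa and Fcrls) lay between 12783 and 13861 CPM (UMIs scaled to a library sum of 1000000) in the 4 mice, and C1qa was the most abundant with 247147 UMIs. Pdgfra, Olig2, Gpr17, Olig1, Neu4 and Lhfpl3 were at 0 UMIs in all 2306 cells, and the 12 oligodendrocyte precursor genes together gave 30 UMIs, or 0.678 to 1.48 CPM by mouse. The 12 pericyte and mural genes gave 325 UMIs, with Vtn and Acta2 among the most abundant. Of these, 226 came from PRMT1FL 1, where 2 cells held 3 or more such UMIs and 1 cell alone held 162, and 83 came from PRMT1Cx3cr1-KO 2, where 1 cell held 69. A single cell of PRMT1FL 2 held 3333 of the 3337 UMIs of the neutrophil genes S100a8 and S100a9 in its Cspg4+ Lpl+ cells, and a single depth-matched cell of the same mouse (below) held 5803 of 5806. In PRMT1Cx3cr1-KO 1, 1 depth-matched cell held 6459 of the 6467 UMIs of 5 choroid plexus genes, led by Ttr. The remaining marker lists summed to 3323 UMIs for endothelium (of which Flt1 gave 3121), 7830 for neutrophils (Csf3r 3687), 2837 for border macrophages (Pf4 2074, Ms4a7 715), 2152 for oligodendrocytes and myelin (Cnp 1114), 1404 for astrocytes (Slc1a3 1251), 207 for monocytes, 62 for choroid plexus, 20 for neurons, 9 for erythroid cells and 2 for lymphocytes. No barcode of these cells was shared between libraries.

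Cspg4+ Lpl+ cells made up 3.58% of cells within the limits in PRMT1FL 1 (409 of 11427, exact 95% interval 3.25 to 3.94) and 3.11% in PRMT1FL 2 (254 of 8170, 2.74 to 3.51). They made up 6.51% in PRMT1Cx3cr1-KO 1 (675 of 10370, 6.04 to 7.0) and 8.88% in PRMT1Cx3cr1-KO 2 (968 of 10902, 8.35 to 9.43). Both knockout mice lay above both controls, with means of 7.69% ± 1.68 and 3.34% ± 0.333 (SD, n = 2 each), a ratio of 2.30. The intervals cover counting error only. Cspg4 is itself part of the rule, so this ratio is a description and was not tested: a Cspg4 UMI was found in 16.6% and 17.2% of PRMT1FL cells and in 26.1% and 31.2% of PRMT1Cx3cr1-KO cells, while Lpl was found in 73.1%, 73.5%, 73.7% and 79.4%. In 42 neutrophil-like cells, which should lack both genes, Cspg4 had 0 UMIs, which allows a share of up to 7.14%, and Lpl was seen in 11.9%, at a median of 3258 UMIs per cell against 6527 in all cells within the limits.

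A threshold on raw UMIs favours deeply sequenced cells. The median depth of Cspg4+ Lpl+ cells was 14507 and 17073.5 UMIs in the PRMT1FL mice and 12721 and 12980.5 in the PRMT1Cx3cr1-KO mice, whereas all cells within the limits had medians of 6066, 6923, 6232.5 and 6959.5. With every cell thinned to 3000 UMIs, and 2187, 1169, 1969 and 1688 shallower cells left out, the rule kept 0.833% and 0.528% of PRMT1FL cells and 1.64% and 2.16% of PRMT1Cx3cr1-KO cells, so the order of the genotypes was the same at equal depth. The requirement of no class II or Mrc1 UMI also cut deeply. By those 4 genes alone, 479 and 423 PRMT1FL cells and 660 and 848 PRMT1Cx3cr1-KO cells with enough Cspg4 and Lpl fell outside. By Lpl alone, 38, 26, 67 and 79 did. Cells free of the 4 genes were 62.3% and 57.2% of PRMT1FL cells and 68.5% and 70.6% of PRMT1Cx3cr1-KO cells, so the exclusion took a larger share of PRMT1FL cells. Among cells free of them, Cspg4+ Lpl+ cells made up 5.74% and 5.43% against 9.51% and 12.6%.

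**Figure D1:**
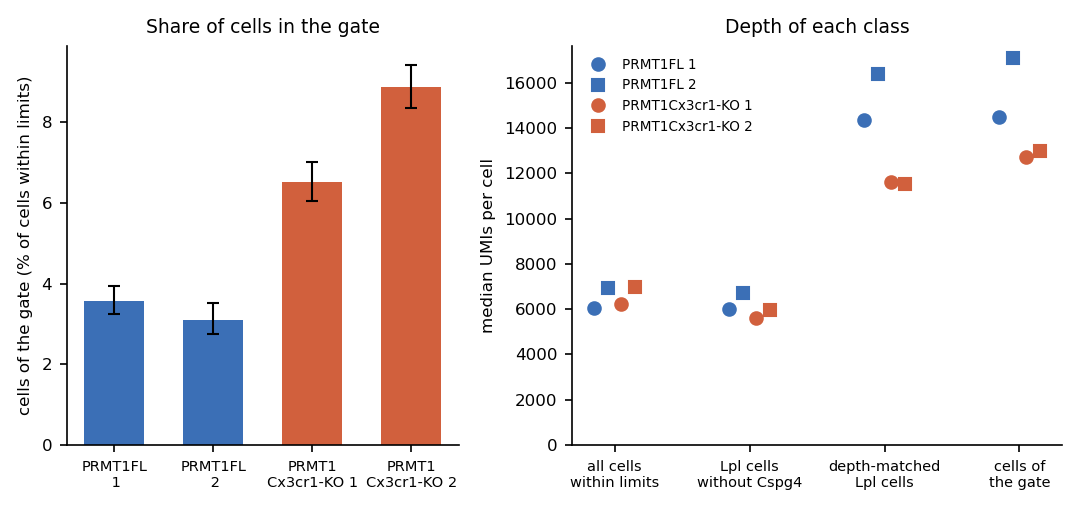
Left, share of Cspg4+ Lpl+ cells (cells of the gate) among cells within the limits for each of the 4 mice, in percent, with exact 95% binomial intervals. Right, median UMIs per cell of 4 classes of cells, 1 point per mouse. The 2 PRMT1Cx3cr1-KO bars, at 6.51% and 8.88%, stand above the 2 PRMT1FL bars, and the gate holds deeper cells than the whole library in every mouse.

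At the edge of the rule, 186, 112, 283 and 432 cells held exactly 2 Cspg4 UMIs, 86, 58, 167 and 208 held 3, and 137, 84, 225 and 328 held 4 or more, with the highest counts at 18, 12, 12 and 14 (PRMT1FL 1 and 2, then PRMT1Cx3cr1-KO 1 and 2, the order used throughout). Just outside it, 431, 251, 585 and 784 cells held 1 Cspg4 UMI with enough Lpl. Lpl had a median of 15, 13, 10 and 11 UMIs per cell. Summed over the cells, Cspg4 stood at 235, 199.9, 248 and 240 CPM and Lpl at 1328, 1056, 979 and 1000.4 CPM, so that PRMT1FL 2 had the lowest Cspg4 and PRMT1FL 1 the highest Lpl.

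To ask which other genes went with Cspg4, each Cspg4+ Lpl+ cell was paired with a cell of the same mouse that had at least 1 Lpl UMI, no Cspg4 UMI and none of the excluded genes, at a depth within 0.1 on the log2 scale. There were 13596 such Lpl cells, and a match was found for 395, 241, 583 and 783 of the Cspg4+ Lpl+ cells. The 14, 13, 92 and 185 cells left without one had median depths of 31073, 35323, 21689 and 20783 UMIs. Raw UMIs were summed per mouse and class and compared with edgeR, with the mouse as a block. Lpl, part of the rule, stood at 1108, 968, 767 and 876 CPM in the matched cells and 1327, 1051, 1036 and 1036 CPM in their Cspg4+ Lpl+ partners. Cells marked as likely doublets by a comparison with simulated doublets made up 11.4%, 7.05%, 8.23% and 10.9% of the paired Cspg4+ Lpl+ cells and 20.8%, 12.9%, 17.3% and 12.9% of their matches; without any marked cell, 1202 genes were called in place of 1500.

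Of 10571 genes tested, 687 (6.5%) were higher and 813 (7.69%) were lower in Cspg4+ Lpl+ cells at an adjusted p under 0.05. DESeq2 called 434. Most differences were small: the median size among called genes was 0.30 on the log2 scale, and 57 exceeded a 2-fold change. The count fell to 784 without PRMT1Cx3cr1-KO 1 and to 854 without PRMT1Cx3cr1-KO 2, and to 603 with every cell thinned to 3000 UMIs.

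Igfbp5 and Fn1, both genes of secreted proteins, had the largest rises among the named genes, which apart from Prmt1 and the study's own genes were picked to move the same way in all 4 mice. Igfbp5, a secreted binder of insulin-like growth factors, stood at 16.3, 11.6, 24.1 and 43.9 CPM in Cspg4+ Lpl+ cells and at 4.26, 3.78, 9.85 and 11.005 in matched cells. The classes did not overlap, as for 7.25% of all genes tested (log2 difference 1.72, SE 0.12, adjusted p = 2.7e-14). At this low level a UMI of it was found in 6.22% to 17.2% of Cspg4+ Lpl+ cells and in 2.07% to 7.15% of matched cells, which at this depth does not give the share of cells that express it. Fn1, which encodes the matrix protein fibronectin, stood at 403, 336, 555 and 549 CPM against 245, 152, 231 and 176, again without overlap. Its log2 difference was 1.18 (SE 0.19, adjusted p = 0.049). The Fn1 call was not secure: its adjusted p ran up to 0.23, the value without PRMT1Cx3cr1-KO 1, and it also missed the threshold without PRMT1FL 2 (0.15) and without PRMT1Cx3cr1-KO 2 (0.078), with log2 differences of 1.16, 1.20 and 1.01.

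Ank, a membrane exporter linked to phosphate and pyrophosphate balance, was the gene with the smallest p among those that rose. It stood at 458, 394, 380 and 414 CPM against 297, 222, 232 and 236, and the log2 difference was 0.71 (SE 0.038, adjusted p = 3.5e-18). Flt1, a receptor for vascular endothelial growth factor, stood at 101, 92.3, 89.6 and 91.3 CPM against 60.5, 59.4, 40.0 and 57.0 (log2 difference 0.77, SE 0.068). Flt1 is also an endothelial gene. Of the same marker list, Cldn5 and Slco1a4 were at 0 UMIs and Pecam1 and Cdh5 at 27 and 15 UMIs in all Cspg4+ Lpl+ cells. Kdr, another endothelial receptor of that list, had 35, 26, 41 and 55 UMIs in the Cspg4+ Lpl+ cells of the 4 mice. A part of endothelial transcripts in the Flt1 rise was not tested. The other named rises were Fmn1 (0.80), Tigar (0.77), Colec12 (0.74), Htra3 (0.71), Slc39a14 (0.71), Ass1 (0.71), Adarb1 (0.66), Cd200r4 (0.64), Adcy3 (0.64), Ero1l (0.63) and Lgi2 (0.61, adjusted p = 0.00056, which became 0.27 without marked doublets). Fmn1 encodes an actin nucleator, Tigar a regulator of glycolytic flux, Colec12 a scavenger receptor, Htra3 a secreted serine protease, Slc39a14 a zinc and iron importer, Ass1 an enzyme of arginine synthesis and Ero1l an oxidase of protein folding in the endoplasmic reticulum.

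Pla2g7 and Pdlim4 had the largest falls. Pla2g7, which encodes a secreted phospholipase that degrades platelet-activating factor, stood at 1.77, 1.51, 7.85 and 13.3 CPM in Cspg4+ Lpl+ cells and at 3.72, 4.53, 32.7 and 68.5 in matched cells. It fell in the fit (log2 difference -2.22, SE 0.12, adjusted p = 5.9e-18), and the PRMT1FL values rest on 10 and 6 UMIs. Pdlim4, an adaptor of the actin cytoskeleton, stood at 10.6, 10.6, 29.8 and 50.1 CPM against 16.8, 17.9, 72.7 and 118. Its log2 difference was -1.18 (SE 0.081), and in both classes the PRMT1Cx3cr1-KO values lay above the PRMT1FL values. Cybb, the catalytic subunit of the phagocyte NADPH oxidase, stood at 35.6, 29.4, 36.7 and 43.8 CPM against 52.7, 65.0, 72.8 and 83.6 (log2 difference -0.94, SE 0.070, adjusted p = 5.1e-13). The other named falls were Ccl5 (-1.13), Klk8 (-1.05), Ms4a7 (-1.01), Tspan13 (-0.98), Igsf6 (-0.96), Gatm (-0.90) and Pid1 (-0.87). A UMI of Ms4a7 was found in 30, 14, 47 and 89 paired Cspg4+ Lpl+ cells and in 31, 26, 65 and 168 of their matches. In PRMT1FL 1 these counts were nearly equal. Ccl5, a chemokine that attracts T cells, lost its call at 3 or more Cspg4 UMIs, where its adjusted p was 0.25. Ms4a7 is also a border macrophage gene. The border macrophage list summed to 32.0, 35.9, 59.1 and 142 CPM in all Cspg4+ Lpl+ cells, those without a match included. In matched cells it summed to 31.2, 40.3, 62.5 and 163 CPM, and its part in these falls was not tested.

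**Figure D2:**
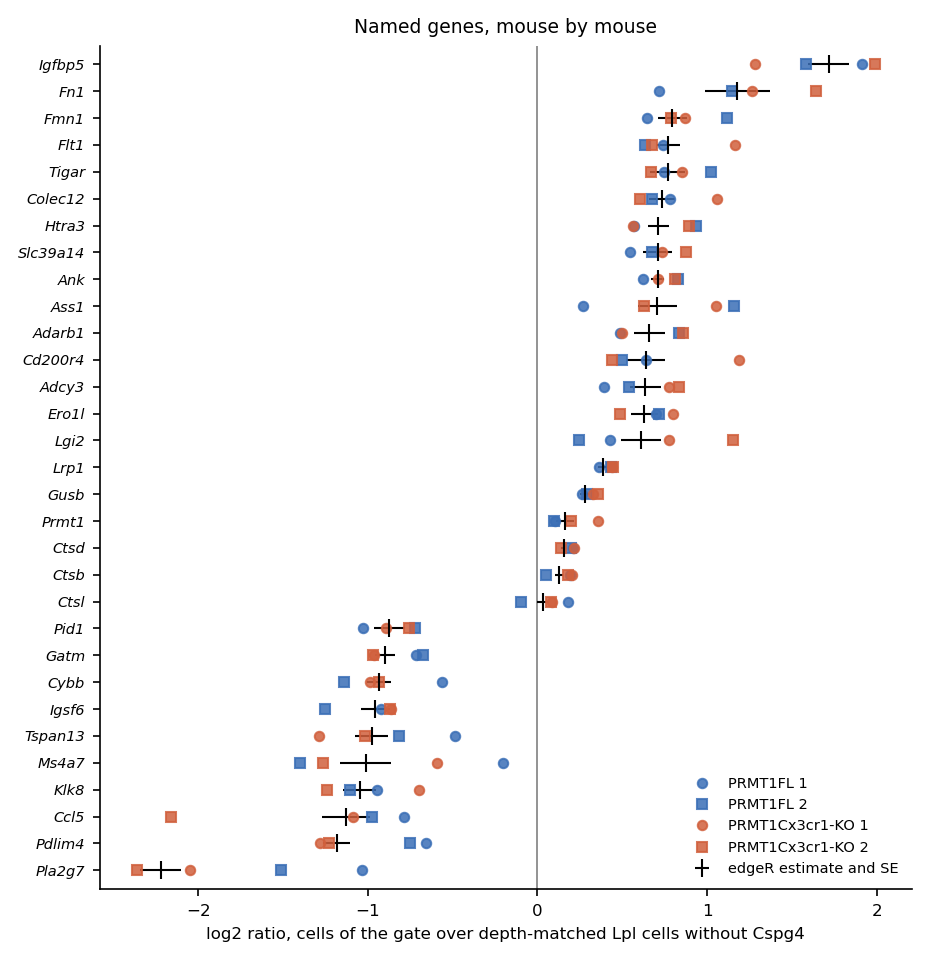
Log2 ratio of CPM in Cspg4+ Lpl+ cells over CPM in depth-matched Lpl cells without Cspg4 for the named genes, 1 point per mouse, with the edgeR estimate and its standard error in black. The 15 rises and 10 falls were picked to lie on 1 side of 0 in all 4 mice; of the 6 genes named in any case, Ctsl alone lies on both sides, below 0 in PRMT1FL 2.

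The study names 5 further genes for its phagocytic cluster, which it chose on these samples, so their direction here is not independent evidence. Of these 5, 4 were higher in Cspg4+ Lpl+ cells and none lower. Lrp1, a large endocytic receptor for lipoproteins and debris, stood at 380, 407, 363 and 406 CPM against 296, 301, 267 and 299 (log2 difference 0.39, SE 0.035, adjusted p = 2.2e-11). Gusb, a lysosomal glucuronidase, rose by 0.28 (SE 0.031), Ctsd, a lysosomal aspartyl protease, by 0.16 (SE 0.018), and Ctsb, a cysteine protease, by 0.13 (SE 0.023). Prmt1 itself had a log2 difference of 0.16 (SE 0.054, adjusted p = 0.038), a call that was lost by DESeq2 (0.37), after thinning (0.074), without marked doublets (0.14), without PRMT1Cx3cr1-KO 1 (0.36) or 2 (0.15) and without the block for mouse (0.78), among others. Of the 30 named genes called between the classes, Prmt1 included, 25 were also called after thinning, 27 without marked doublets, 29 by DESeq2 and 15 without the block for mouse. Ctsl, a cysteine protease, did not pass: it stood at 3462, 3110, 2424 and 2016 CPM against 3050, 3332, 2287 and 1904 (log2 difference 0.031, SE 0.036, adjusted p = 0.66), and the classes overlapped.

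Lysosomal enzymes as a whole moved both ways. Of 35 tested cathepsins and lysosomal hydrolases, 12 were higher, 9 lower and 14 not called, with a median log2 difference of 0.0097 against -0.0048 over all genes. Arsb (0.33) and Galns (0.59), which act on sulfated glycosaminoglycans such as chondroitin sulfate, were among the rises. Ctss (-0.29), which trims the invariant chain of class II molecules, and Man2b1 (-0.32) were among the falls. Of 18 genes of the lysosomal membrane and V-ATPase, 3 were higher and 1 lower (median -0.031). The list of phagocytosis and scavenger receptors had 7 higher and 2 lower of 24 (median 0.017): Gas6, a bridge between apoptotic cells and TAM receptors, rose by 0.33, whereas Fcgr3, an activating receptor for antibody, fell by 0.34. Over all genes, 6.5% were higher and 7.69% lower. These lists set the cells against other Lpl cells, and no list was tested as a set. The counts therefore do not say what the label "phagocytic" rests on.

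Genes of glucose use were the list with the largest share of calls in 1 direction among the 20 pathway lists, apart from the study's own 5 genes. Of 18 tested, 11 were higher and none lower, with a median log2 difference of 0.26, and 11 were also called without any 1 of the 4 mice. Gapdh, an enzyme of the pay-off phase of glycolysis, stood at 3061, 3322, 2703 and 2947 CPM against 2597, 2581, 2092 and 2322 (log2 difference 0.30, SE 0.025, adjusted p = 2.6e-12). Ldha, which turns pyruvate into lactate, stood at 743, 762, 691 and 649.97 CPM against 615, 585, 496 and 477 (log2 difference 0.36, SE 0.033). Slc16a3, the lactate exporter MCT4, stood at 150.4, 149.7, 139 and 139 CPM against 104, 109, 96.4 and 95.8, a gap far wider than the spread among mice (log2 difference 0.49, SE 0.045, adjusted p = 3.7e-11). Hif1a, a transcription factor of the hypoxia response that is counted among the 18 although it is no enzyme or transporter, rose by 0.34 (SE 0.040). The median share of a cell's UMIs taken by the whole list was 0.900%, 0.887%, 0.751% and 0.787% in Cspg4+ Lpl+ cells and 0.724%, 0.695%, 0.605% and 0.633% in matched cells.

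The promoters of the 3 glycolysis genes with the smallest p are shown because these genes rose together, and that of Cspg4 because the gene defines the cells. Each is the 250 bases before the gene's start in RefSeq (build GRCm38.p6), in the direction of transcription, with every ACGTG in capitals on either strand (CACGT on the other). ACGTG is the core of the hypoxia response element and also lies inside the E-box CACGTG, which then counts on both strands. All 18 genes of the list, Hif1a included, matched the RefSeq table. A gene counted if any of its listed windows held the motif, and Aldoa and Pkm had it only outside their first window. By this count the motif was in 8 of the 11 called genes (72.7%) and 3 of the 7 others (42.9%). Counted the same way, it was in 18.5% of 27025 genes with a promoter of this length. The difference was not tested. Ldha (chr7:46845554-46845803, plus strand) held 5 matches, while the window of its second listed start (chr7:46846832-46847081) held 0, and Slc16a3 (chr11:120948817-120949066, plus strand) held 2, whereas Gapdh (chr6:125165774-125166023, minus strand) and Cspg4 (chr9:56864854-56865103, plus strand) held 0 in this window. A match is a run of letters and not a measured binding site.
Ldha: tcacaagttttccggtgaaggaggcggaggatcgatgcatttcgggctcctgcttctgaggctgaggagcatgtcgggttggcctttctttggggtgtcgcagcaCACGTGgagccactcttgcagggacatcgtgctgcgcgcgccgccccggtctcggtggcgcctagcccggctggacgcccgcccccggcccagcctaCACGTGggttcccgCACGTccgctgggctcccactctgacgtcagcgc
Slc16a3: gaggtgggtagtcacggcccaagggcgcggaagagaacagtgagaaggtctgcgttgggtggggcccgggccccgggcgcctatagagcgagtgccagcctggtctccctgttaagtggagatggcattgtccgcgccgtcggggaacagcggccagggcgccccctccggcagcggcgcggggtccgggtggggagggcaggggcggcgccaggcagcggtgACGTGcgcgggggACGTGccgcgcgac
Gapdh: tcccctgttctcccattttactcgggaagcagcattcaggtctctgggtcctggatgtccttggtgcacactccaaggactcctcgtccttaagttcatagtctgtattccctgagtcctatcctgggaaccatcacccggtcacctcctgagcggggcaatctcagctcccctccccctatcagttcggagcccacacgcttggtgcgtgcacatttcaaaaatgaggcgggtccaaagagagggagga
Cspg4: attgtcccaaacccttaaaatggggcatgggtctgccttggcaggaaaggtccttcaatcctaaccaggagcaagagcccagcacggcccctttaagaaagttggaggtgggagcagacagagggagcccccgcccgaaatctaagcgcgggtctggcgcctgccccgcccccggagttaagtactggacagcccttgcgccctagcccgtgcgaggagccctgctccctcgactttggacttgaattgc

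Oxidative phosphorylation genes had 7 higher and none lower of 21 (median 0.080), among them the complex III subunit Uqcrq (0.25); 4 were called without PRMT1Cx3cr1-KO 1 and 2 by DESeq2. DNA replication genes had 7 higher and none lower of 20 (median 0.28), and genes of G2 and mitosis none higher and 1 lower of 24. Pcna, the sliding clamp of DNA polymerase, stood at 80.25, 79.5, 86.2 and 92.9 CPM against 62.4, 62.4, 61.8 and 71.3 (log2 difference 0.37, SE 0.054), and Rrm2, a subunit of ribonucleotide reductase, rose by 0.74 (SE 0.11). The replication calls were 4 without PRMT1FL 2, 2 with DESeq2 and 1 of the 15 still tested (median 0.042) when cells with a UMI of Mki67, Birc5, Cdk1 or Ccnb2 were set aside, a condition under which 11 glycolysis genes and 12 oxidative phosphorylation genes were called as higher. Sterol synthesis genes had 1 higher of 16 and none lower.

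Falls outnumbered rises in the homeostatic, interferon and immediate early lists. Of 25 homeostatic microglia genes, 13 were lower, 3 higher and 9 not called (median -0.12). Cst3, a secreted inhibitor of cathepsins, stood at 8507, 9396, 7969 and 7802 CPM against 11088, 13377, 11031 and 10649. It was lower in every mouse and the classes did not overlap, as for 7.25% of all genes tested (log2 difference -0.48, SE 0.020, adjusted p = 1.2e-21). Csf1r, the receptor that keeps microglia alive, fell by 0.21 and Cx3cr1, the fractalkine receptor, by 0.22, while Tmem119 (0.15) and Fcrls (0.10) were among the 3 rises, of which 1 was called without PRMT1Cx3cr1-KO 1 and 1 without PRMT1Cx3cr1-KO 2. Of 24 immediate early and heat shock genes, 12 were lower, none higher and 12 not called (median -0.18). Btg2 fell by 0.50 (SE 0.034), Klf6 by 0.40 and Fos by 0.35; these transcripts are known to rise during enzymatic dissociation, and how the classes met that step was not tested. Of 24 genes of the type I interferon response, 8 were lower, none higher and 16 not called (median -0.18), a count of 4 without either PRMT1Cx3cr1-KO mouse and 13 without PRMT1FL 1. Irf1 fell by 0.40 (SE 0.060). Of 18 antigen presentation genes outside the rule, 4 were lower and 2 higher. Cd74, the class II invariant chain, stood at 50.8, 48.6, 72.5 and 32.5 CPM against 79.6, 103, 96.8 and 45.6 (log2 difference -0.65, SE 0.086), although both classes had been chosen for 0 UMIs of 3 class II genes.

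Lipid, activation and cytokine lists held rises and falls together. Of 27 lipid handling genes, 6 were higher and 7 lower: Fabp5 (0.43) and Scd2 (0.53), which bind and desaturate fatty acids, rose, while Apoe (-0.41) and Apoc1 (-0.64), apolipoproteins of lipid export, fell with adjusted p = 0.023 and 0.032. Of 5 tested partners of lipoprotein lipase, Sorl1 was lower and none was higher. Of 25 disease-associated microglia genes, 9 were higher and 4 lower, the falls being Cybb, Itgax (-0.60, the integrin CD11c), Apoe and Cd83. Of 26 cytokines and chemokines, 6 were higher and 7 lower; Il6 stood at 19.8, 18.4, 12.8 and 9.41 CPM against 10.1, 8.81, 4.85 and 5.03 (log2 difference 1.04, SE 0.14), and Il1b fell by 0.60. Among 16 genes of chondroitin sulfate synthesis and other proteoglycans, the sugar chains that NG2 carries, 4 were higher and 1 lower. Xylt1, which starts the chains, rose by 0.66 and the sulfotransferase Chst11 by 0.58, while Chst7 fell by 0.98. Of 20 genes of actin, adhesion and known NG2 partners, 5 were higher and 3 lower, among them Plau (0.42) and the integrin subunits Itga5 (0.49) and Itgb1 (0.15). Of 23 genes of oxidative and integrated stress, 6 were higher and 2 lower, with the serine synthesis enzymes Psat1 (0.41) and Phgdh (0.34) among the rises.

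**Figure D3:**
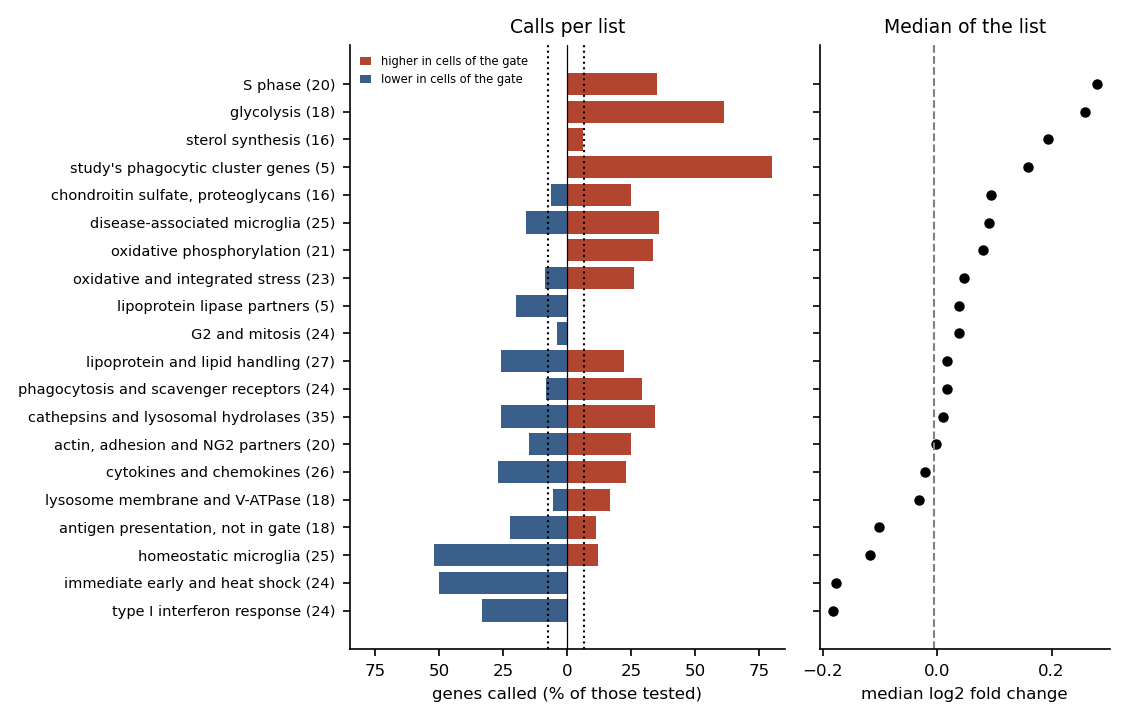
Left, share of the tested genes of each of 20 lists that edgeR called higher (right of 0) or lower (left of 0) in Cspg4+ Lpl+ cells than in depth-matched Lpl cells without Cspg4, in percent, with the number tested in parentheses; dotted lines mark the shares over all genes, 6.5% and 7.69%. Right, median log2 fold change of each list, with the median of all genes dashed. Glycolysis and DNA replication lie at the upper end, interferon and immediate early genes at the lower end.

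Sorted by the number of Cspg4 UMIs in the cell, among cells with 2 or more Lpl UMIs and none of the excluded genes, Fn1, Lrp1 and Cybb had levels in cells of 1 Cspg4 UMI that lay between those of cells with 0 and with 4 or more in every mouse, although not every bin in between kept that order. These bins differ in depth (median UMIs per cell ran from 6860, 7562.5, 6344 and 6686 with 0 Cspg4 UMIs to 15881, 19773.5, 14198 and 16392.5 with 4 or more), so they are given without a test. Fn1 stood at 163, 113, 179 and 152 CPM with no Cspg4 UMI, 294, 220, 373 and 318 with 1, 307, 306, 442 and 452 with 2, 403, 289, 525 and 464 with 3, and 529, 396, 662 and 683 with 4 or more. Lrp1 ran from 269, 264, 263 and 290.4 CPM with none to 428, 420.5, 397 and 444 with 4 or more. Cybb ran down from 66.4, 74.8, 79.9 and 82.4 CPM to 31.2, 21.5, 31.3 and 40.5. Cx3cr1 stood at 1338, 1475, 799 and 805 CPM with none and at 1110, 1212, 739 and 792 with 4 or more, and in PRMT1Cx3cr1-KO 2 the bins showed no order (782 with 1 and 819 with 3).

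**Figure D4:**
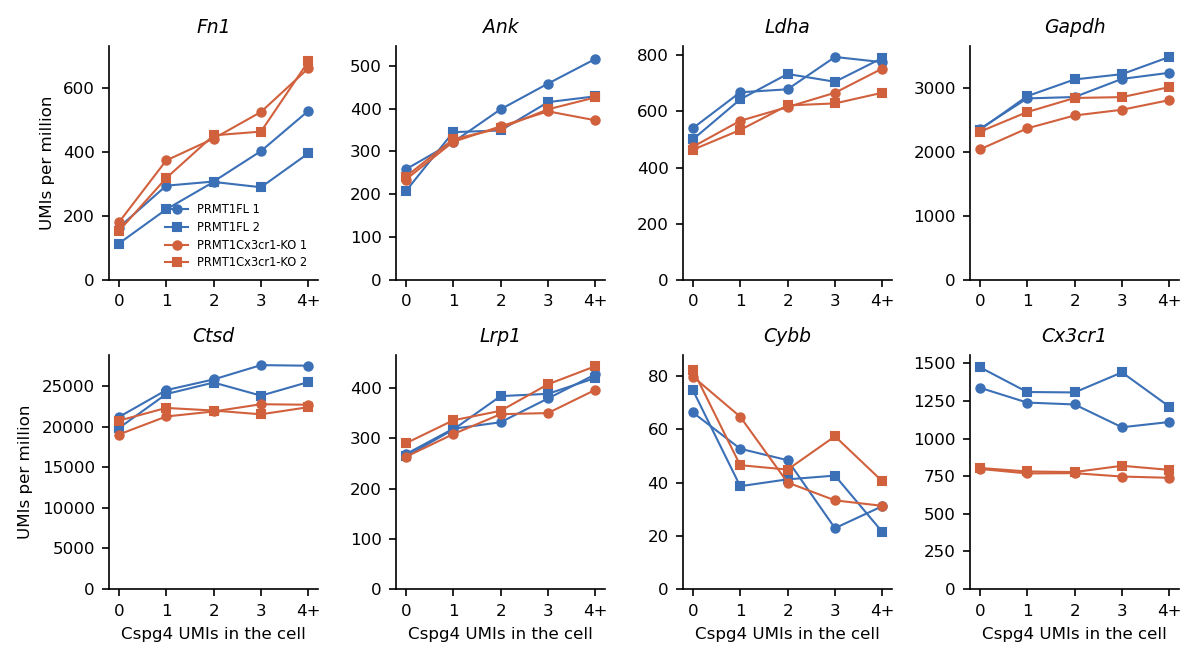
Level of 8 genes in CPM (vertical axes start at 0) by the number of Cspg4 UMIs in the cell, 1 line per mouse, among cells with 2 or more Lpl UMIs and none of the excluded genes. Fn1, Ank, Ldha, Gapdh and Lrp1 are higher with 4 or more Cspg4 UMIs than with 0 in every mouse and Cybb is lower, and cells with 1 Cspg4 UMI, just outside the rule, lie between the ends for these 6 genes.

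The genotypes were compared within all 2306 Cspg4+ Lpl+ cells, with each mouse as 1 replicate. Prmt1 stood at 100.9 and 92.4 CPM in the PRMT1FL mice and at 81.8 and 78.7 in the PRMT1Cx3cr1-KO mice, lower in both and not past the threshold (log2 difference -0.35, SE 0.094, adjusted p = 0.12). Reads from the 3′ end need not cover the deleted exons, so this level does not check the labels. Of 10868 genes tested, 59 (0.543%) were higher and 31 (0.285%) lower in PRMT1Cx3cr1-KO; DESeq2 called 78, of which 50 were among the 90. The count moved strongly with single mice, to 17 without PRMT1FL 1, 30 without PRMT1FL 2 and 449 without PRMT1Cx3cr1-KO 1, and to 18 when edgeR's variance estimate was not made robust to outlying genes. Of the 25 genes named below and in the plot of genotype ratios, 20 were called; of these 20, 4 were also called without PRMT1FL 1, 8 without PRMT1FL 2, 8 without the robust estimate, 10 after thinning, 12 of the 18 still tested without cells holding cell cycle transcripts, 16 without marked doublets and 20 by DESeq2.

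Of 24 genes of G2 and mitosis, 7 were higher in the knockout's Cspg4+ Lpl+ cells, 17 were not called and none was lower, and the median log2 difference of the list was 0.82 against 0.0026 over all genes. Cenpf, a kinetochore protein, stood at 14.1 and 11.7 CPM in PRMT1FL and 32.6 and 41.1 CPM in PRMT1Cx3cr1-KO mice (log2 difference 1.42, SE 0.15, adjusted p = 0.0024). Cenpa, the histone of the centromere, stood at 22.1 and 22.4 against 45.5 and 58.4 (1.15, SE 0.13), and Ccnb2, a cyclin of mitosis, at 14.6 and 18.8 against 28.4 and 39.9 (0.98, SE 0.18, adjusted p = 0.042). The groups did not overlap for these 3 genes, which with 2 mice against 2 was so for 46.2% of all genes tested. Of these 24 genes, 1 was called without PRMT1FL 1, 3 without PRMT1Cx3cr1-KO 2 and 12 without PRMT1Cx3cr1-KO 1, and none of the 4 still tested when cells with a UMI of Mki67, Birc5, Cdk1 or Ccnb2 were set aside (median 0.46). Setting those cells aside selects on mitotic transcripts, so the loss of mitotic calls was fixed in advance and is no check of them. Mki67 was detected in 10.8% and 16.1% of the PRMT1FL cells and in 18.7% and 23.2% of the PRMT1Cx3cr1-KO cells, although the latter were shallower. Replication genes had none called of 20, with a median of 0.33. Racgap1, which serves cell division, and Cdkn2a, which codes for inhibitors of the cell cycle, were also higher, by 1.001 and 1.07.

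Ccl2, a chemokine for monocytes, had the smallest p of the comparison. It stood at 39.4 and 40.0 CPM in PRMT1FL and at 90.8 and 93.5 CPM in PRMT1Cx3cr1-KO mice (log2 difference 1.14, SE 0.097, adjusted p = 0.00046), so the gap was many times the spread within groups. Ehd1, a protein of endosome recycling, stood at 20.3 and 18.5 against 43.3 and 43.9 (1.08, SE 0.12). The other named rises were Msr1 (1.247), a scavenger receptor, Pde4b (1.18), a cyclic AMP phosphodiesterase, and Blvrb (0.92), a reductase of haem breakdown.

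Among the falls, Gpnmb, a glycoprotein of lysosome-laden phagocytes, stood at 204 and 218 CPM in PRMT1FL and 131 and 133 in PRMT1Cx3cr1-KO mice (log2 difference -0.76, SE 0.087, adjusted p = 0.0024). Cst7, a cystatin of disease-associated microglia, stood at 2198 and 2066 against 1406 and 1047 (-0.87, SE 0.14, adjusted p = 0.036). Cx3cr1 stood at 1151 and 1299 against 753 and 792 (-0.74, SE 0.093); the driver sits in this locus, so an effect of the driver and of Prmt1 loss cannot be told apart. Ctsl stood at 3395 and 3119 against 2397 and 1994 (-0.65, SE 0.11, adjusted p = 0.023). Siglecf (-1.10), Pacsin1 (-1.09), Lgi2 (-0.91), Il4i1 (-0.86), Bnip3 (-0.73) and Ccl6 (-0.67) were the remaining named falls. Of 35 lysosomal hydrolases, 3 were lower (Ctsl, Gaa and Glb1) and none higher, with a median of -0.22; none was called without PRMT1FL 1 or without PRMT1FL 2, 1 without PRMT1Cx3cr1-KO 2 and 16 without PRMT1Cx3cr1-KO 1. Of the study's genes for the phagocytic cluster, Ctsl was called. Ctsb (-0.35, adjusted p = 0.15), Ctsd (-0.30, 0.23), Lrp1 (-0.096, 0.72) and Gusb (0.026, 0.94) were not. Among these uncalled genes and Prmt1, 2 passed with no low-count filter. Disease-associated genes had 4 lower of 25 (Gpnmb, Cst7, Ccl6 and Baiap2l2) with a median of -0.28, of which 1 was called without PRMT1FL 1, 1 without PRMT1FL 2 and 10 genes without PRMT1Cx3cr1-KO 1. Interferon (median -0.14), antigen presentation (-0.30), oxidative phosphorylation (0.023) and sterol synthesis genes (0.25) had none called in either direction. Glycolysis had 1, Pkm, lower and none higher, with a median of -0.21.

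**Figure D5:**
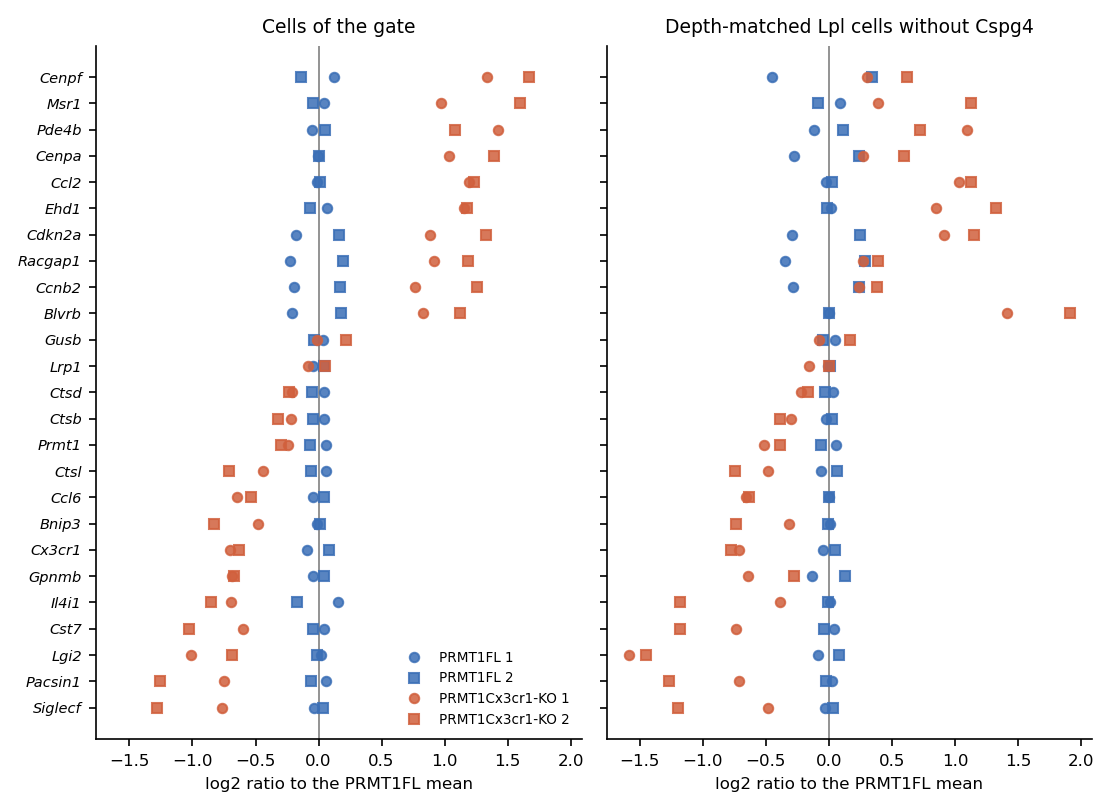
Log2 ratio of each mouse's CPM to the mean of the PRMT1FL mice for the genes named in the genotype comparison, 1 point per mouse. Left, all Cspg4+ Lpl+ cells, those without a match included. Right, depth-matched Lpl cells without Cspg4. The mitotic genes Cenpf, Cenpa and Ccnb2 separate the genotypes on the left, whereas on the right PRMT1FL 2 lies level with PRMT1Cx3cr1-KO 1.

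In the depth-matched Lpl cells, the genotype comparison called 92 (0.863%) of 10660 genes higher and 86 (0.807%) lower, and DESeq2 called 66. It too moved with single mice, to 59 without PRMT1FL 1, 80 without PRMT1FL 2, 613 without PRMT1Cx3cr1-KO 1 and 283 without PRMT1Cx3cr1-KO 2. Both comparisons use the same 4 mice, so their values are set side by side. The sets of cells are unlike, since the Cspg4+ Lpl+ side also held the deep cells without a match. Those made up 3.42%, 5.12%, 13.6% and 19.1% of it in the 4 mice. How they bear on differences between the 2 comparisons was not tested. Ccl2 stood at 42.9 and 44.3 CPM against 89.0 and 95.4 CPM (log2 difference 0.996 here and 1.14 in Cspg4+ Lpl+ cells). Ctsl differed by -0.69 and -0.65, Cx3cr1 by -0.83 and -0.74, and Ehd1 by 1.02 and 1.08. Prmt1 passed in the matched cells, at 94.0 and 86.6 against 63.3 and 69.1 CPM (-0.54, SE 0.10, adjusted p = 0.012). The mitotic list had none called and a median of 0.31. Of 35 hydrolases 8 were lower, a count of 2 without PRMT1FL 1, 1 without PRMT1FL 2 and 19 without PRMT1Cx3cr1-KO 1. Glycolysis had 3 lower and none higher of 18, with a median of -0.28. Pdlim4, at 16.8 and 17.9 against 72.7 and 118 CPM, had the largest named difference (2.38, SE 0.28, adjusted p = 0.035), followed by Il18bp (1.79) and Blvrb (1.60). Camk2n1 (1.29), Cd300a (1.15), Ms4a6b (1.02), Cdkn2a (0.99) and Gsr (0.92) were also higher. Lgi2 (-1.59), Pacsin1 (-1.07), Cst7 (-1.02), Pcp4 (-0.91), Atf5 (-0.90), Baiap2l2 (-0.90), Adssl1 (-0.79), Otud1 (-0.79), Bri3bp (-0.74) and Ctsb (-0.43) were lower. Of the 23 named genes called here, 9 were also called without PRMT1FL 1, 12 after thinning, 14 without cells holding cell cycle transcripts, 17 without PRMT1FL 2 and 18 by DESeq2.

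Whether the genotype difference itself differed between Cspg4+ Lpl+ cells and their matches was tested as an interaction. Of 10908 genes, 11 (0.101%) had a more positive and 17 (0.156%) a more negative difference in Cspg4+ Lpl+ cells. DESeq2 called 0, with 63 genes at an unadjusted p under 0.05 against 744 by edgeR, so these calls rest on 1 tool. The count was 54 without PRMT1Cx3cr1-KO 1, 16 without PRMT1Cx3cr1-KO 2 and 4 after thinning. Genes that store iron and defend against oxidation made up part of the negative side. Fth1, the heavy chain of ferritin, stood at 7117, 7374, 7813 and 8210 CPM in Cspg4+ Lpl+ cells and at 7304, 7595, 9243 and 10701 in matched cells, so that the PRMT1Cx3cr1-KO matched cells stood apart. Gclm, a subunit of the enzyme that limits glutathione synthesis, stood at 18.1, 17.6, 26.5 and 33.1 CPM against 18.6, 14.6, 44.4 and 85.2. Of 24 oxidative and integrated stress genes, 4 were on the negative side (Fth1, Ftl1, Gclm and Slc7a11) and none on the positive side, with a median of -0.36, and none was called without PRMT1Cx3cr1-KO 2 and 2 without PRMT1FL 1. On the positive side stood Ube2c and Birc5, both mitotic genes. Birc5 stood at 21.6, 29.9, 43.1 and 58.9 CPM in Cspg4+ Lpl+ cells and at 30.7, 45.6, 40.1 and 47.7 in matched cells. Of 24 mitotic genes these 2 were called, with none called without PRMT1FL 2 or without PRMT1Cx3cr1-KO 2 and 5 without PRMT1Cx3cr1-KO 1. None of the 35 hydrolases and none of the 18 glycolysis genes was called in this test, with medians of 0.021 and 0.028.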

How the data were processed

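The deposited values were raw UMI counts per gene and cell, made by the authors from the 10x reads with Cell Ranger 3.1.0 against mm10; Seurat 3.2.0 and Scanpy 1.5.2 are also listed in the submitters' processing notes. Cells were kept and classed as stated, each matched without replacement to a cell of its mouse within 0.1 on the log2 scale of total UMIs. Counts were summed per mouse and class and fitted with edgeR 4.0.16 (R 4.3.3; TMM scaling, robust quasi-likelihood test, minimum count 10, Benjamini-Hochberg adjustment over all genes, threshold 0.05); standard errors came from the F statistic. The class comparison had the mouse as a block; genotypes were compared 2 against 2, where an exact permutation test could not go below p = 0.333. The 6 genes of the rule were not tested. Doublets were marked by likeness to simulated ones, at 0.8% per 1000 barcodes, since the automatic threshold of the planned caller marked almost no cell. Named genes were those called with the largest fold change at 20 CPM or more (15 rises and 10 falls between classes, 10 each between genotypes) with the study's 5 cluster genes and Prmt1; those between classes had to move the same way in all 4 mice, and unnamed gene models, mitochondrial and ribosomal protein genes were left out. Members named within a list were mostly those of smallest p, the others (such as Galns, Itga5 and Chst7) being picked after their values were seen. The members and lists were chosen with earlier results of these data known. The steps were tested on simulated data with 200 changed genes, and 100%, 99.5%, 98% and 78.5% of them were recovered. The order is classes, genotypes in Cspg4+ Lpl+ cells, genotypes in matched cells and interaction. False calls made up 2.91%, 5.24%, 6.67% and 8.19% of the calls. Whether these rates hold for the measured counts of the 4 mice was not tested. Alternatives were DESeq2 1.42.0, other count filters, thinning, no marked doublets, other thresholds and matching, and leaving out each mouse; the edgeR fit without robust estimation and the removal of cells with cell cycle transcripts were added after seeing the data. Some members of the lists are counted but not reported by name here.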

Additional observations from a re-analysis of the deposited data

Results flagged for a closer look

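In 28 genes the difference between genotypes was not the same in Cspg4+ Lpl+ cells and in depth-matched Lpl cells without Cspg4, by edgeR's interaction test at an adjusted p under 0.05. DESeq2 called 0 of them, with 63 genes at an unadjusted p under 0.05. Among the genes named, Fth1 (-0.27), Ftl1 (-0.20), Gclm (-1.20), Blvrb (-0.78), Cd300a (-0.99) and P2ry12 (-0.30) had a more negative log2 difference in Cspg4+ Lpl+ cells, and Ube2c (0.79) and Birc5 (0.78) a more positive one. Blvrb stood at 28.9, 38.0, 56.8 and 65.4 CPM in Cspg4+ Lpl+ cells and at 42.7, 42.8, 114 and 161 in matched cells. Cd300a, an inhibitory receptor, stood at 17.9, 23.1, 23.4 and 24.3 CPM against 27.7, 31.2, 66.5 and 71.1, so the matched cells of both knockout mice lay apart from the other 6 values.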

How the results depend on the processing

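With 2 mice per genotype, counts of calls moved with single mice, with a range of 784 to 1452 between classes, 17 to 449 between genotypes in Cspg4+ Lpl+ cells, 59 to 613 in matched cells and 16 to 54 for the interaction; where an arm kept 1 mouse, it was assumed to vary like the others. The log2 ratio of shares ranged from 0.961 to 1.41, and was 1.48 after thinning and 0.879 with no exclusion. Between classes DESeq2 called 434, thinning to 3000 UMIs 603, no depth matching 4105 and no replicate block 117; the mouse is a true pairing there. In the order Cspg4+ Lpl+ cells, matched cells and interaction, thinning gave 24, 30 and 4 and no low-count filter 446, 469 and 69. A minimum count of 50 gave 51 in Cspg4+ Lpl+ cells, DESeq2 66 in matched cells and 0 for the interaction, the fit without robust estimation 18 and 97, and setting cycling cells aside 56 and 76. The labels do not say whether mice of the same replicate number were paired across genotypes, and they were treated as unpaired. Same-numbered deviations correlated at -0.0023 and 0.0033 in the 2 classes, which does not settle it. The fit with the number as a replicate block called 153 and 520. Uncalled genes changed sign. Ctsl between classes ranged from -0.0064 to 0.086 without 1 mouse and was -0.023 without doublets and -0.013 at 3 or more Cspg4 UMIs. It passed the threshold without PRMT1FL 2. Gusb ranged from -0.072 to 0.11 in Cspg4+ Lpl+ cells and from -0.14 to 0.057 in matched cells, 0.0060 with 2 or more Lpl UMIs. The causes were not tested.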
